A study of Homo sapiens with 12 samples.

Results

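The 41 genes described here encode proteins of homologous recombination and of the Fanconi anemia pathway, together with POLQ, which encodes the polymerase of an alternative end joining route, and the checkpoint kinases that act with them. They were chosen by name, from general knowledge of these pathways, by a rule that holds no measured value, though earlier results of these data were known when it was set. All 41 are among the 60591 genes listed by symbol in the deposited table, and all 41 passed the filter on low counts that left 19108 genes to be tested. RNA was sequenced from PC9 and H1650, established human non-small cell lung cancer lines that, by the study's text, carry the same activating deletion in EGFR, while their deposited genotype is given as wild type. Cells of either line were collected at T0 (0.1% DMSO, 0 h), after 36 h with 10 μM erlotinib, or after 36 h with 0.1 μM osimertinib, and both drugs inhibit the EGFR kinase. Each of the 6 groups has 2 libraries, 12 in all, from cells grown in RPMI with serum and antibiotics. Each change from T0 therefore holds the effect of a drug together with any effect of 36 h in culture, which cannot be told apart, since libraries of vehicle alone at 36 h were not analysed here. The study calls the replicates biological, while the labels do not say that they came from separate cultures, and p-values measure the spread between these libraries.

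Homologous recombination repairs a broken chromosome by copying the sister chromatid. The ends are first trimmed to single strands, which then invade the intact copy with the help of BRCA2, and joint molecules are finally resolved by helicases and nucleases. The Fanconi anemia pathway removes crosslinks between DNA strands: a core ubiquitin ligase marks the FANCI and FANCD2 pair, which brings in nucleases and recombination proteins. A sister chromatid exists only after replication, and many of these genes are transcribed mostly in the S and G2 phases of dividing cells.

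The promoters of the 6 genes that hold an E2F motif are shown because E2F factors are the textbook activators of S phase genes. RefSeq promoter sequences (GRCh38.p14, 250 bases before to 50 bases after the gene start, 300 in all) were found for 37 of the 41 genes. The entries of NBN, RAD54B, RMI2 and FANCI were missing. Only 1 start was searched for each gene, so promoters at other starts of a gene, BRCA1 among them, were not covered. The 8-base sequences TTTCCCGC, TTTCGCGC, TTTGCCGC and TTTGGCGC were searched on both strands. At least 1 of them was in 6 of the 37 promoters (16.2%) and in 908 of 27305 promoters of all genes (3.33%). Among the genes that were over 2-fold lower in PC9 cells with both drugs, 5 of 24 promoters held one (20.8%). Of the 13 others 1 did (7.69%), FANCC, a split that was not tested. Some of these others also fell in PC9 cells with both drugs, though by less, FANCC among them. A match is a description of the letters and not a shown binding site. Below, the match is in capitals, and each sequence runs 5′ to 3′ on the strand of its gene. The sequences lie at chr1:241847954-241848253 (+ strand) for EXO1, chr7:152676092-152676391 (- strand) for XRCC2, chr2:17753619-17753918 (+ strand) for GEN1, chr16:89816598-89816897 (- strand) for FANCA, chr9:95317660-95317959 (- strand) for FANCC and chr3:10026187-10026486 (+ strand) for FANCD2.
EXO1: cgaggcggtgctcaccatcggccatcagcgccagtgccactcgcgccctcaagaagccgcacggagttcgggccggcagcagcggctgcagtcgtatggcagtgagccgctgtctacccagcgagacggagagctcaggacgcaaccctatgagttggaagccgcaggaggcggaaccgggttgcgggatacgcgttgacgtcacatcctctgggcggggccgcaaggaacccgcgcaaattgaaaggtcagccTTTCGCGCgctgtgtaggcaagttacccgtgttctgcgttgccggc
XRCC2: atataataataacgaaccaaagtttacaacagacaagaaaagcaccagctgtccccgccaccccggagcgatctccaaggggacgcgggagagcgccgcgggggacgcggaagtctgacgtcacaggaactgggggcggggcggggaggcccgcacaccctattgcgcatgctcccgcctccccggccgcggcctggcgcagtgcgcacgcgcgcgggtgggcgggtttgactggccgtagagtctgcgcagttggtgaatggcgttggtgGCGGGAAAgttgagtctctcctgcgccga
GEN1: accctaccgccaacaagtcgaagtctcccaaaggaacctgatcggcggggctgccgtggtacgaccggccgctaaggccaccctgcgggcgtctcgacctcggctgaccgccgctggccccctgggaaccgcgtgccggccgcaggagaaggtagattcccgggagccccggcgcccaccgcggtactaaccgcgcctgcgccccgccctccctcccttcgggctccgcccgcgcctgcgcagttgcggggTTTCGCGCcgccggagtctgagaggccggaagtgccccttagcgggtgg
FANCA: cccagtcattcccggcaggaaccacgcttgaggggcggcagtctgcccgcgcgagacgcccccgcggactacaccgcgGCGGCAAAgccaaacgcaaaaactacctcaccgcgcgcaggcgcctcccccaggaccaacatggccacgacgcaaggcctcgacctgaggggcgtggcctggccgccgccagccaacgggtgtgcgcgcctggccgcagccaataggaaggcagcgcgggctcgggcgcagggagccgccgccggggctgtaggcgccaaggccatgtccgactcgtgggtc
FANCC: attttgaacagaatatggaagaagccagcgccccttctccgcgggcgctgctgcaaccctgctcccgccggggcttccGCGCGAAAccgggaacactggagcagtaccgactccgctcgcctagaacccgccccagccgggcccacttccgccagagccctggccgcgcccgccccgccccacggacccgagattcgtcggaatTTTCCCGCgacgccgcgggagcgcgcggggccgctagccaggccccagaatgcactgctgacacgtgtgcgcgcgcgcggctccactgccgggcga
FANCD2: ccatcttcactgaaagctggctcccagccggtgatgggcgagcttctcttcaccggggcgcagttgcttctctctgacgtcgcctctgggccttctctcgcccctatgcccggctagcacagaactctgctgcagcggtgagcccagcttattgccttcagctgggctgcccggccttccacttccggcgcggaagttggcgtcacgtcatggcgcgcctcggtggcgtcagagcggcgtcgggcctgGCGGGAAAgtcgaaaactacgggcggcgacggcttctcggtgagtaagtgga
Counted from 0 at the first base of the gene, the matches begin at 4 in EXO1, 21 in XRCC2, 1 in GEN1 and -2 in FANCD2, all next to the start. The match in FANCA begins at -172 and those in FANCC at -172 and -46. The CCAAT box was in 40.5% of the 37 promoters and 35.7% of all promoters. By the same split it was in 45.8% of the 24 and 30.8% of the 13. The CHR element of cell cycle genes, searched as TTTGAA and TTCGAA, was in 13.5% of the 37 and 16.6% of all promoters, and its split went the other way, 12.5% of the 24 and 15.4% of the 13.

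The libraries held between 17961765 and 26346187 counted reads. At this depth 3 reads, the limit that a count of 0 allows, are 0.116 to 0.168 normalized CPM (CPM, read counts scaled to the normalized library size), and this limit covers counting error only. Pairs of values below are the normalized CPM of replicates 1 and 2. Of the markers of the labelled cell type, EPCAM, CDH1 and the 4 keratins KRT7, KRT8, KRT18 and KRT19 were at 185 CPM or more in every library. The lung lineage markers NKX2-1 (at most 0.0933 CPM) and SFTPB (at most 0.154 CPM) were absent or nearly so, and NAPSA was at 0.353 to 1.85 CPM. The 10 markers of immune, endothelial and fibroblast cells summed to 12.6 to 49.0 CPM, with PTPRC, CD3E, LYZ, COL1A2 and DCN at 0 to 0.224 CPM. Most of the sum was COL1A1, a collagen gene, at 9.96 to 44.8 CPM, which was at 21.1 and 18.3 CPM in PC9 cells at T0 and at 44.8 and 36.7 CPM with osimertinib. CDH5, an endothelial marker, was at 0.655 and 0.691 CPM in PC9 cells at T0 and at 2.42 to 3.48 CPM in the treated PC9 libraries. PECAM1, the other endothelial marker, went the other way, from 1.61 and 1.58 CPM to 0.269 to 0.509 CPM in the same libraries. CD14, a monocyte marker, reached 3.96 CPM in H1650 cells. ACTA2, listed as a fibroblast marker, fell in H1650 cells from 2.19 and 2.35 CPM at T0 to 0.239 to 0.568 CPM after treatment. The part of these genes in the changes below was not tested.

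At T0 the 41 genes made up 1690 and 1730 CPM in PC9 cells and 1700 and 1770 CPM in H1650 cells. Compared per base of gene length, as RPKM (CPM divided by the deposited gene length in kilobases), the highest levels in PC9 cells were those of UBE2T, the E2 enzyme of the Fanconi ligase (26.7 ± 1.35, SD, n = 2), and RAD51AP1, an accessory factor of strand exchange (25.3 ± 1.52). FANCI (20 ± 0.874) and NBN (18.8 ± 0.755) came next. UBE2T and RAD51AP1 lay within 2 SD of each other, as did FANCI and NBN. The lowest levels in PC9 cells were those of RAD51B (0.630 ± 0.0330), ATM (0.980 ± 0.116) and RAD50 (1.09 ± 0.0771). UBE2T was also first (25.8 ± 0.0188) and RAD51B last (0.451 ± 0.0196) in H1650 cells.

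After either EGFR inhibitor most of these mRNAs were several fold lower in PC9 cells and many were slightly lower in H1650 cells. In PC9 cells their sum fell to 591 and 627 CPM with erlotinib and to 573 and 581 CPM with osimertinib. In H1650 cells it was 1440 and 1480 CPM with erlotinib and 1240 and 1300 CPM with osimertinib. Treated and T0 libraries did not overlap in either line. The share of mitochondrial reads did not overlap either: it was 5.17% and 4.54% at T0 and 6.32% to 7.2% after treatment in PC9 cells, and 4.36% and 5.36% at T0 and 5.77% to 6.6% after treatment in H1650 cells. Its part in the changes was not tested.

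With erlotinib in PC9 cells, 34 of the 41 mRNAs were lower, against 29.1% of all 19108 tested genes, and 27 were over 2-fold lower, against 13%. Another 4 were higher, against 32.7% of all genes, and 3 did not pass the test. The 4 were 2 without PC9 T0 replicate 2. With osimertinib in PC9 cells, 34 were lower against 28.7% of all genes, 28 were over 2-fold lower against 13%, and 2 were higher against 32.7%. The 2 were 1, ATM, under most settings that left out 1 library, as detailed for FANCF. The same 34 genes were lower with both drugs, 19 of them over 4-fold and 12 of them over 8-fold with each. The shares of all tested genes at these limits with both drugs were not counted. The median log2 fold change was -1.89 with erlotinib and -1.97 with osimertinib, where the medians of all tested genes were 0.07 and 0.06.

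With erlotinib in H1650 cells, 21 of the 41 were lower against 18.5% of all genes, none over 2-fold (lowest log2 -0.75) against 2.63%, and 3 were higher against 18%. With osimertinib in H1650 cells, 29 were lower against 17.9% of all genes, none over 2-fold (lowest log2 -0.96) against 2.43%, and 1 was higher against 17.8%. The 3 were 1 without H1650 T0 replicate 2 or H1650 erlotinib replicate 2, and the 1 was 0 without H1650 T0 replicate 2 or H1650 osimertinib replicate 1. The medians were -0.30 and -0.45, against 0.01 and 0.00 over all tested genes. In all 4 comparisons 20 genes were lower and ATM alone was higher, while RAD50 and RAD51B passed the test in none. The shares of all tested genes called in all 4 or in none were not counted. All calls are from edgeR's quasi-likelihood test at a Benjamini-Hochberg adjusted p under 0.05. Comparisons within a line share their T0 libraries, so their values stand side by side and are not independent of each other.

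**Figure D1:**
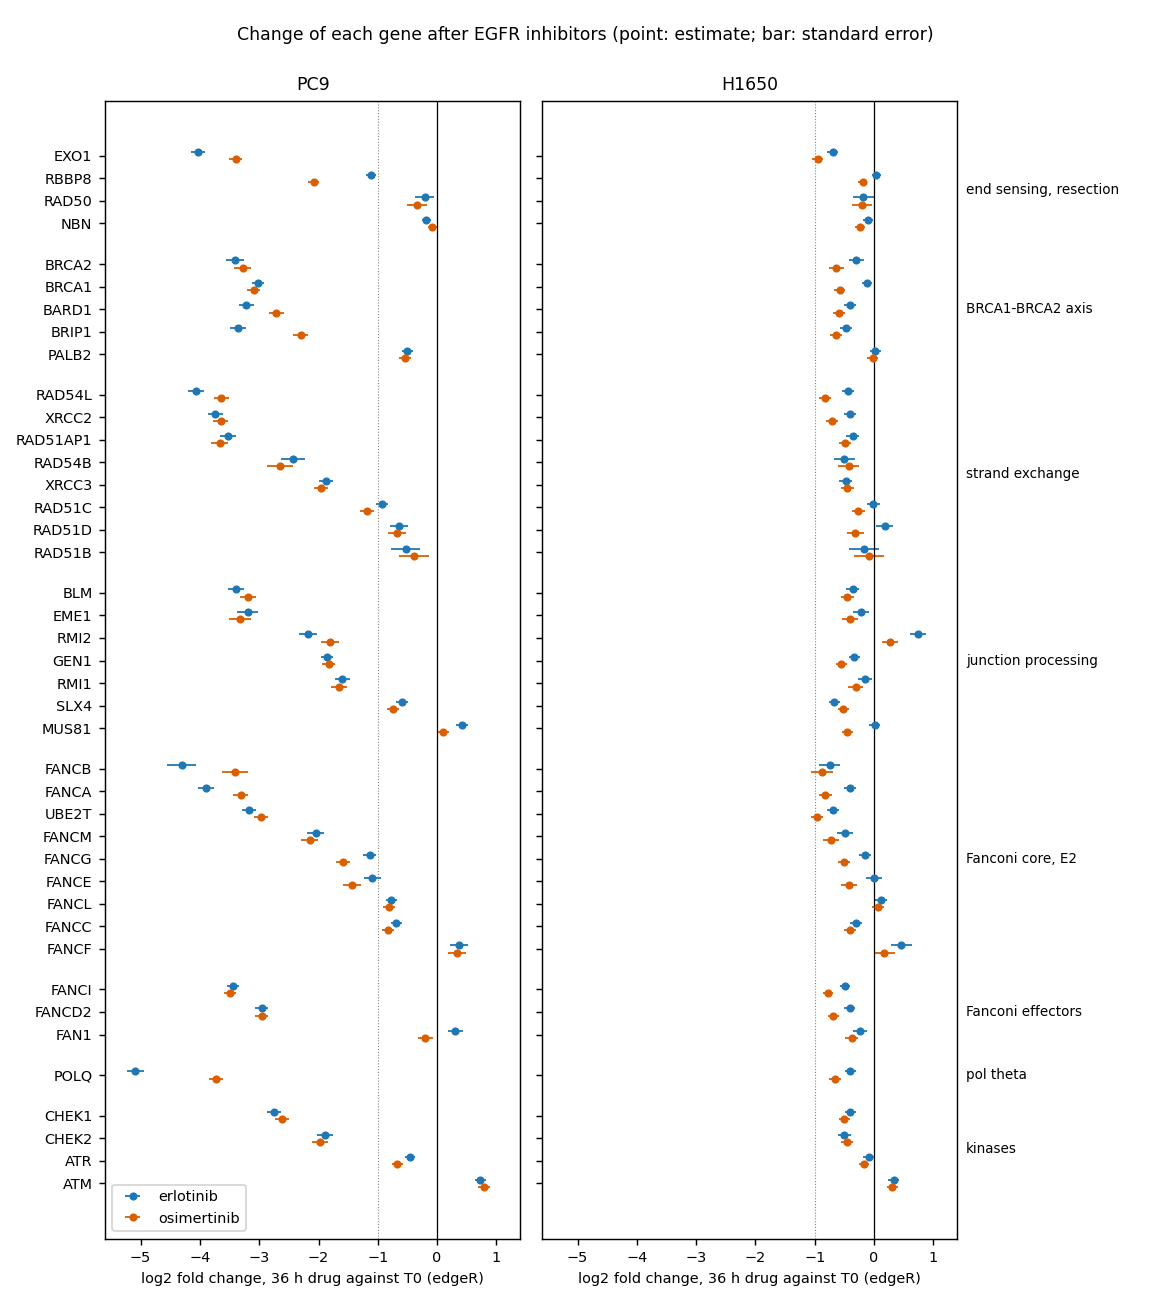
The log2 fold change of each of the 41 genes (horizontal axis) at 36 h against T0 is plotted by role, with PC9 on the left and H1650 on the right, erlotinib in blue and osimertinib in orange, and bars for the standard error. The dotted line marks a 2-fold fall, which 27 genes passed with both drugs in PC9 cells and none passed in H1650 cells.

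Genes whose products sense and trim DNA ends moved unequally. EXO1, the exonuclease of long-range resection, was at 50.3 and 54.1 CPM in PC9 cells at T0, at 3.0 and 3.36 with erlotinib and at 5.23 and 4.60 with osimertinib. These groups do not overlap, and the falls were 16.4-fold (log2 -4.03 ± 0.121, SE, adjusted p = 4.9e-21) and 10.6-fold (-3.40 ± 0.117, adjusted p = 8.4e-20). In H1650 cells EXO1 went from 75.7 and 74.7 CPM to 46.2 and 46.4 with erlotinib and 36.6 and 41.4 with osimertinib, a fall of 1.62-fold and 1.93-fold.

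RBBP8, also called CtIP, starts resection. It fell from 58.9 and 61.7 CPM to 25.8 and 29.5 CPM with erlotinib and 13.8 and 14.7 CPM with osimertinib in PC9 cells. It did not pass the test in H1650 cells (log2 0.04 and -0.19). NBN and RAD50 belong to the complex that first binds broken ends. NBN was at 113 and 119 CPM at T0, 95.2 and 110 with erlotinib and 108 and 110 with osimertinib in PC9 cells, with log2 fold changes of -0.18 (adjusted p = 0.059) and -0.08 (adjusted p = 0.39). The 95% interval with erlotinib, -0.35 to -0.01, holds no value as low as the change of EXO1. NBN fell slightly in H1650 cells with osimertinib (log2 -0.24 ± 0.0818, adjusted p = 0.021), a call that was lost without H1650 T0 replicate 2 or without H1650 osimertinib replicate 1. RAD50 ranged from 6.80 to 12.1 CPM over all 12 libraries.

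BRCA1 and its partner BARD1 form a ubiquitin ligase at breaks, PALB2 joins BRCA1 to BRCA2, and BRIP1 is a helicase bound to BRCA1. All 5 genes of this axis fell in PC9 cells with both drugs. BRCA2 went from 30.8 and 37.5 CPM to 3.0 and 3.40 with erlotinib and 3.38 and 3.64 with osimertinib, falls of 10.6-fold (log2 -3.41 ± 0.147, adjusted p = 1.4e-17) and 9.74-fold (-3.28 ± 0.149, adjusted p = 4.3e-17). BRCA1 went from 73.2 and 72.5 CPM to 8.11 and 9.72 and to 8.60 and 8.47 CPM. BARD1 fell 9.32-fold and 6.52-fold, and BRIP1 fell 10.3-fold and 4.91-fold.

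PALB2 changed far less than its partners. It was at 33.8 CPM in both T0 libraries of PC9 cells, at 22.2 and 25.5 with erlotinib and at 21.7 and 24.8 with osimertinib. The falls were 1.42-fold (log2 -0.50 ± 0.0982, adjusted p = 6.5e-05) and 1.46-fold (-0.54 ± 0.100, adjusted p = 3.0e-05). In H1650 cells PALB2 ranged from 45.9 to 50.3 CPM over the 6 libraries and did not pass the test with either drug. BRCA1 in H1650 cells was at 80.3 and 85.7 CPM at T0, 71.4 and 81.4 with erlotinib and 52.1 and 58.7 with osimertinib. The erlotinib group overlaps T0 (log2 -0.12, adjusted p = 0.31), while the osimertinib group lies below it (-0.58 ± 0.0889, adjusted p = 6.3e-06). BRCA2 fell in H1650 cells with osimertinib (log2 -0.64, adjusted p = 0.00021), and with erlotinib its value was -0.30 (adjusted p = 0.063).

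Strand exchange pairs the trimmed end with the intact copy. RAD54L, a motor protein of this step, went from 52.5 and 48.9 CPM to 3.0 and 3.01 with erlotinib and to 4.25 and 3.87 with osimertinib in PC9 cells. That is a fall of 16.8-fold (log2 -4.07 ± 0.130, adjusted p = 1.7e-20) and 12.4-fold (-3.64 ± 0.128, adjusted p = 1.4e-19). H1650 levels went from 28.8 and 29.6 CPM to 21.4 and 21.6 and to 15.5 and 17.2 CPM, below T0 in every treated library. LRRC41 overlaps 25.1% of the exon bases of RAD54L on the opposite strand, and it was at 88.1 CPM in PC9 cells at T0 and rose there (log2 0.67 and 0.60). RAD51AP1 went from 62.0 and 67.5 CPM to 4.66 and 6.44 with erlotinib and 5.41 and 4.71 with osimertinib in PC9 cells, falls of 11.6-fold and 12.7-fold. In H1650 cells RAD51AP1 went from 45.8 and 51.5 CPM to 38.4 and 37.7 and to 31.6 and 37.7 CPM, and the erlotinib call was lost without H1650 T0 replicate 2 (adjusted p = 0.12).

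The mediators of strand exchange XRCC2, XRCC3, RAD51B, RAD51C and RAD51D did not move alike. XRCC2 fell 13.4-fold and 12.5-fold in PC9 cells, and XRCC3 fell 3.68-fold and 3.88-fold. RAD51C fell 1.91-fold and 2.27-fold and RAD51D 1.56-fold and 1.60-fold. RAD51B was at 4.54 and 4.89 CPM at T0, 2.60 and 3.86 with erlotinib and 2.87 and 4.37 with osimertinib, with log2 fold changes of -0.53 ± 0.247 (adjusted p = 0.062) and -0.39 ± 0.250 (adjusted p = 0.18). At so low a level its intervals are wide (-1.04 to -0.03 and -0.91 to 0.12), and they do not reach the fall of XRCC2. By GENCODE 29 (GRCh38) the exons of XRCC3 are overlapped over 76.7% of their bases by KLC1 on the opposite strand. KLC1 itself fell in PC9 cells (log2 -0.72 and -0.88), and without strand information the reads of both cannot be told apart. RAD51D shares exons with the readthrough gene RAD51L3-RFFL on its own strand, so its counts are uncertain. RAD54B, a relative of RAD54L, fell 5.38-fold and 6.29-fold, and its exons overlap FSBP on the same strand.

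Among the genes that take joint molecules apart, BLM encodes a helicase that works in a complex with RMI1 and RMI2. BLM went from 31.6 and 36.4 CPM to 3.63 and 2.89 with erlotinib and 3.75 and 3.70 with osimertinib in PC9 cells. The falls were 10.5-fold (log2 -3.39 ± 0.140, adjusted p = 5.6e-18) and 9.11-fold (-3.19 ± 0.141, adjusted p = 2.5e-17). In H1650 cells BLM went from 27.7 and 27.2 CPM to 21.8 and 20.9 and to 21.0 and 19.2 CPM. The erlotinib call (adjusted p = 0.013) was lost without H1650 T0 replicate 1 or H1650 erlotinib replicate 2, with an adjusted p of up to 0.078.

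RMI2 was the 1 gene called in opposite directions in the 2 lines with the same drug. In PC9 cells it went from 21.2 and 20 CPM to 4.93 and 4.22 with erlotinib and 4.72 and 7.18 with osimertinib. H1650 libraries held 19.6 and 20.6 CPM at T0 and 37.0 and 30.3 CPM with erlotinib, a rise of 1.67-fold (log2 0.74 ± 0.128, adjusted p = 3.8e-05). With osimertinib in H1650 cells it was at 24.5 and 24.1 CPM (log2 0.27 ± 0.130, adjusted p = 0.11). Its partner RMI1 fell 3.03-fold and 3.14-fold in PC9 cells. RMI1 fell 1.24-fold with osimertinib in H1650 cells (adjusted p = 0.046), a call lost in 9 of the alternative settings.

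MUS81 and EME1 encode the subunits of 1 nuclease. EME1 went from 15.4 and 16.2 CPM to 1.88 and 1.60 with erlotinib and 1.43 and 1.74 with osimertinib in PC9 cells, falls of 9.11-fold and 10.0-fold. MUS81 rose with erlotinib, from 33.8 and 29.9 CPM to 44.0 and 41.4 (log2 0.42 ± 0.0969, adjusted p = 0.00043), and was at 32.9 and 35.3 CPM with osimertinib, overlapping T0 (0.10, adjusted p = 0.42). In H1650 cells MUS81 was at 45.3 and 39.9 CPM at T0, 44.9 and 40.7 with erlotinib and 32.1 and 30.2 with osimertinib, the last a fall of 1.37-fold (log2 -0.45 ± 0.0966, adjusted p = 0.00049). CFL1 and EFEMP2 overlap 14.1% of the exon bases of MUS81 on the opposite strand. CFL1, at 1100 CPM in PC9 cells at T0, fell with erlotinib (log2 -0.82), and EFEMP2, at 3.42 CPM, rose (2.26), and their part in the counts of MUS81 was not tested. LRRC59 overlaps 16.4% of the exon bases of EME1 and fell as well (log2 -1.99 and -1.66). SLX4, a scaffold for nucleases, fell by similar amounts in both lines: 1.5-fold and 1.67-fold in PC9 cells, 1.59-fold and 1.43-fold in H1650 cells. GEN1, a resolvase, fell 3.62-fold and 3.55-fold in PC9 cells.

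**Figure D2:**
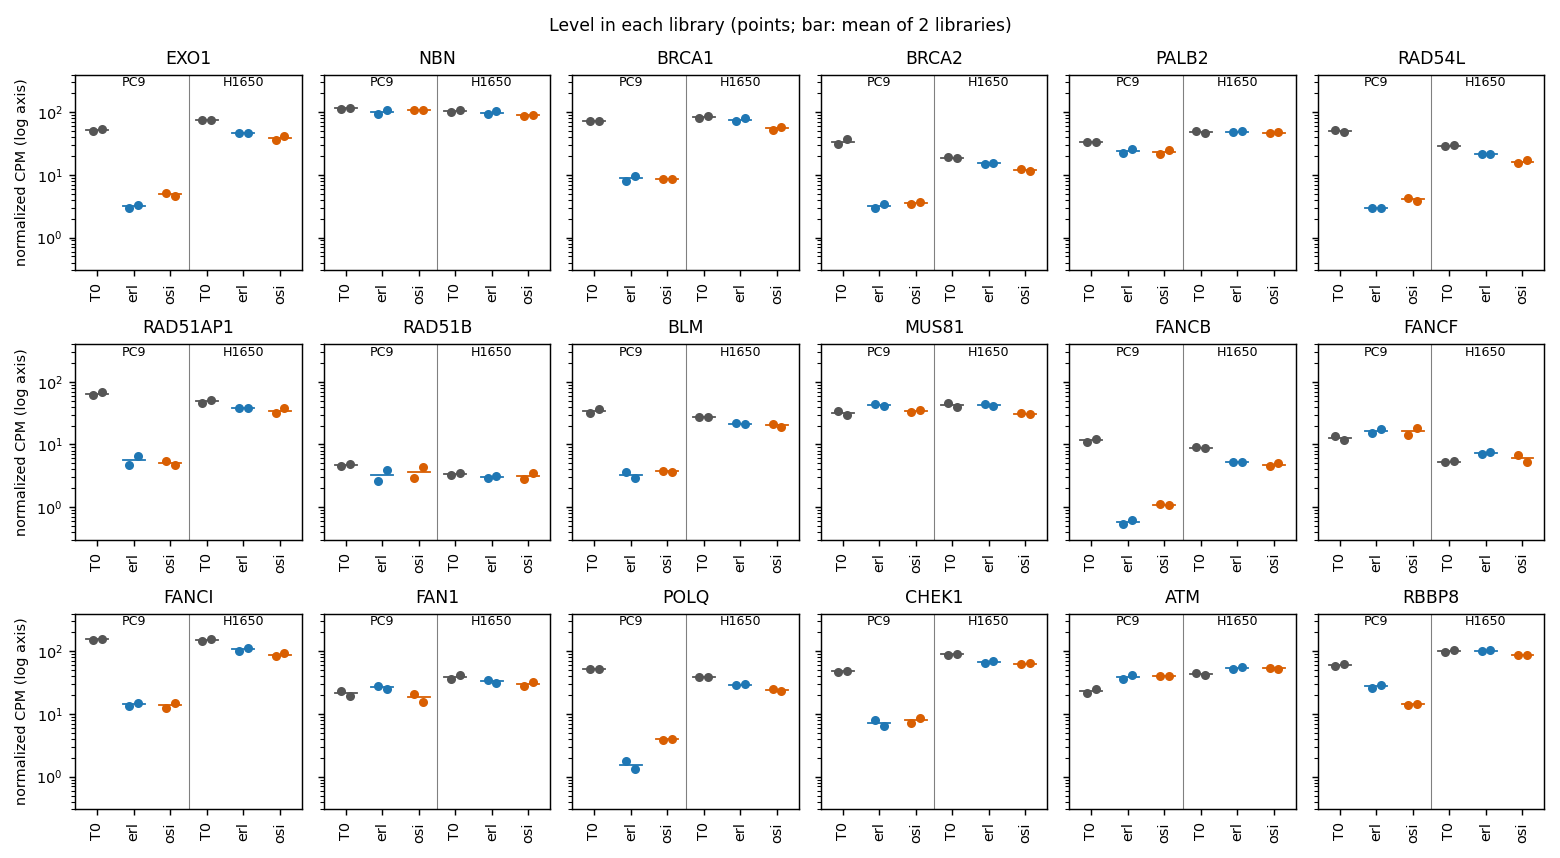
Normalized CPM on a log axis is plotted for 18 of the genes in each of the 12 libraries (points, with a bar at the mean of 2), T0 in grey, erlotinib in blue and osimertinib in orange. The treated PC9 libraries of POLQ, FANCB, EXO1 and RAD54L lie 1 log10 unit or more below T0 for erlotinib, and those of NBN, FANCF and FAN1 lie close to it.

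The core ligase of the Fanconi anemia pathway brings together FANCA, FANCB, FANCC, FANCE, FANCF, FANCG, FANCL and FANCM, and UBE2T is its E2 enzyme. Of these 9 genes 8 fell in PC9 cells with each drug. FANCB went from 11 and 12.3 CPM to 0.537 and 0.625 with erlotinib, counts of 12 and 16 reads, and to 1.11 and 1.07 with osimertinib. These are falls of 19.8-fold (log2 -4.31 ± 0.241, adjusted p = 4.8e-15) and 10.7-fold (-3.41 ± 0.225, adjusted p = 1.6e-13). In H1650 cells FANCB went from 8.96 and 8.64 CPM to 5.26 and 5.17 and to 4.49 and 5.08 CPM.

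FANCA, a subunit that binds FANCG, fell 14.9-fold and 9.93-fold in PC9 cells, from 63.4 and 59.8 CPM. UBE2T fell 8.99-fold and 7.83-fold, from 42.5 and 45.7 CPM. FANCM, the motor that brings the core to DNA, fell 4.15-fold and 4.44-fold. FANCG fell 2.20-fold and 2.99-fold and FANCE 2.13-fold and 2.71-fold. FANCC and FANCL, the catalytic subunit, fell by less than 2-fold (1.61-fold and 1.77-fold, 1.71-fold and 1.75-fold). ZNF276 overlaps 23.6% of the exon bases of FANCA on the opposite strand (its own log2 fold change in PC9 cells was -0.19 with erlotinib, adjusted p = 0.23, and -0.42 with osimertinib, adjusted p = 0.0098). VRK2 overlaps FANCL and fell in PC9 cells with both drugs (log2 -0.41 and -0.58).

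FANCF was the core gene that rose. It was at 13.7 and 11.7 CPM in PC9 cells at T0, at 15.4 and 17.5 with erlotinib and at 14.3 and 18.0 with osimertinib, with every treated library above both T0 libraries. The rises were 1.29-fold (log2 0.37 ± 0.147, adjusted p = 0.03) and 1.27-fold (0.34 ± 0.149, adjusted p = 0.049). Its H1650 levels were 5.32 and 5.36 CPM at T0, 6.97 and 7.68 with erlotinib (1.37-fold, adjusted p = 0.04) and 6.73 and 5.30 with osimertinib (adjusted p = 0.50). These calls are weak: they were lost in 5, 14 and 7 of the alternative settings, DESeq2 among them in all 3 cases. Its exons are overlapped over 11.3% of their bases by GAS2, which was at 0.676 CPM in PC9 cells at T0 and rose with both drugs (log2 1.5 and 1.68).

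FANCI and FANCD2 form the pair that the core ligase ubiquitinates. FANCI, with the highest CPM of the 41 genes at T0, went from 150 and 160 CPM to 13.6 and 15 with erlotinib and 12.4 and 15.2 with osimertinib in PC9 cells. The falls were 10.8-fold (log2 -3.44 ± 0.0983, adjusted p = 1.9e-21) and 11.3-fold (-3.49 ± 0.101, adjusted p = 2.0e-21). The H1650 levels went from 145 and 157 CPM to 103 and 111 and to 84.0 and 92.8 CPM, falls of 1.41-fold and 1.71-fold. FANCD2 fell 7.80-fold and 7.79-fold in PC9 cells and 1.33-fold and 1.62-fold in H1650 cells.

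FAN1, a nuclease that the ubiquitinated pair can recruit, did not follow them. It was at 23.0 and 19.6 CPM in PC9 cells at T0, 27.6 and 25.4 with erlotinib and 21.2 and 15.8 with osimertinib. It rose with erlotinib (log2 0.31 ± 0.122, adjusted p = 0.028), a call lost in 6 alternative settings with an adjusted p of up to 0.28, and not with osimertinib (-0.20, adjusted p = 0.18). In H1650 cells FAN1 was at 36.7 and 41.6 CPM at T0, 34.6 and 31.8 with erlotinib (adjusted p = 0.11) and 28.4 and 31.9 with osimertinib (log2 -0.38, adjusted p = 0.011). MTMR10 overlaps 24.3% of its exon bases on the opposite strand and did not pass the test in any of the 4 comparisons.

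POLQ, the polymerase of microhomology-mediated end joining, had the lowest fold change of the 41 genes in PC9 cells with each drug. It was at 52.1 CPM in both T0 libraries, at 1.75 and 1.33 with erlotinib and at 3.84 and 4.04 with osimertinib. These are falls of 34.1-fold (log2 -5.09 ± 0.140, adjusted p = 9.3e-22) and 13.2-fold (-3.73 ± 0.125, adjusted p = 4.6e-20). POLQ in H1650 cells was at 38.4 and 38.7 CPM at T0, 28.9 and 29.6 with erlotinib (log2 -0.40 ± 0.0971) and 25.2 and 23.6 with osimertinib (-0.66 ± 0.0980).

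Of the checkpoint kinases, ATM answers to double-strand breaks and ATR to single-stranded DNA, and CHEK2 and CHEK1 carry their signals. CHEK1 went from 47.2 and 49.4 CPM to 8.11 and 6.36 with erlotinib and 7.12 and 8.69 with osimertinib in PC9 cells. The falls were 6.71-fold (log2 -2.75 ± 0.112, adjusted p = 4.3e-18) and 6.14-fold (-2.62 ± 0.114, adjusted p = 1.6e-17). CHEK1 in H1650 cells went from 88.2 and 92.1 CPM to 66.3 and 70.9 and to 62.1 and 65.5 CPM. CHEK2 fell 3.72-fold and 3.92-fold in PC9 cells and 1.42-fold and 1.36-fold in H1650 cells. CHEK1 and CHEK2 counts are uncertain since CHEK1 shares exons with STT3A and pseudogenes are named after CHEK2. Pseudogenes are also named after RBBP8, RAD51AP1 and FANCD2. Exons of BRCA1, RAD50 and RBBP8 are overlapped by another gene on their own strand, so these counts carry the same limit. ATR fell 1.37-fold and 1.59-fold in PC9 cells and did not pass the test in H1650 cells, and AC109992.1 overlaps 16.4% of its exon bases on the opposite strand.

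ATM rose in all 4 comparisons. It was at 21.5 and 25.5 CPM in PC9 cells at T0, 36.5 and 41.3 with erlotinib and 41 and 40.5 with osimertinib, rises of 1.66-fold (log2 0.73 ± 0.0976, adjusted p = 2.3e-07) and 1.73-fold (0.79 ± 0.0985, adjusted p = 5.9e-08). H1650 cells had 44.7 and 42.0 CPM at T0, 52.7 and 56.2 with erlotinib (1.26-fold, adjusted p = 0.0051) and 54.7 and 52.8 with osimertinib (1.24-fold, adjusted p = 0.0083). No treated library of either line overlapped T0, and the H1650 calls were lost without H1650 T0 replicate 2 (adjusted p of up to 0.092 over all settings that lost one). The genes NPAT and C11orf65 overlap 1.5% of its exon bases on the opposite strand, and NPAT, at 26.0 CPM in PC9 cells at T0, fell there (log2 -0.57 with erlotinib and -0.25 with osimertinib). C11orf65, at 0.399 CPM, rose (log2 1.85, adjusted p = 0.0018, and 1.41, adjusted p = 0.02), and its part in the counts of ATM was not tested.

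The lines were compared directly by the drug-by-line difference, the log2 fold change in H1650 cells minus that in PC9 cells. With erlotinib 33 of the 41 genes passed the test with a difference above 0 (21.1% of all tested genes) and 3 with one below 0 (19.8%). With osimertinib 32 passed above 0 (21.5%) and 2 below 0 (20.5%). The 3 were 1 without H1650 T0 replicate 1 or PC9 T0 replicate 2, and the 2 were 1 without PC9 T0 replicate 1. The median was 1.52 with each drug. Among the 34 genes that fell in PC9 cells with both drugs, 32 passed with a difference above 0 with both drugs, and the other 2 were SLX4 and RAD51D. A difference above 0 is not always a smaller fall in H1650 cells. With erlotinib RMI2 was called higher there, and RBBP8 (log2 0.04) and PALB2 (0.02) did not pass the test. The highest differences were those of POLQ (4.69 ± 0.177, adjusted p = 4.7e-18) and RAD54L (3.63 ± 0.169) with erlotinib, and of RAD51AP1 (3.18 ± 0.175) and POLQ (3.06 ± 0.161) with osimertinib. SLX4 had a difference of -0.09 ± 0.135 with erlotinib and 0.22 ± 0.137 with osimertinib.

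ATM, MUS81 and FAN1 passed the test with a difference below 0. With erlotinib that of ATM was -0.40 ± 0.134 (adjusted p = 0.018), a call lost in 6 alternative settings. ATM rose less in H1650 cells with osimertinib (-0.48 ± 0.134, adjusted p = 0.0045). That call was lost without PC9 T0 replicate 1, where it was -0.36 (adjusted p = 0.063). The differences of MUS81 were -0.41 with erlotinib (adjusted p = 0.015) and -0.55 with osimertinib (adjusted p = 0.002), and that of FAN1 with erlotinib was -0.55 (adjusted p = 0.0093). The erlotinib call of MUS81 was lost in 5 alternative settings and that of FAN1 in 2, and the setting without PC9 T0 replicate 2 was among them in both cases.

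As a description across genes, with no library shared between lines, Pearson's r between the log2 fold changes of PC9 and H1650 was 0.594 with erlotinib and 0.741 with osimertinib (Spearman's rho 0.641 and 0.761, n = 41 genes). Genes are not independent replicates, and all points of a line share its T0 libraries. Among the 34 genes that fell in PC9 cells, ATR, FANCL, PALB2, RAD51C, RAD51D, RBBP8 and RMI2 were the 7 that were lower with neither drug in H1650 cells. The share of all tested genes with these joint calls was not counted.

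**Figure D3:**
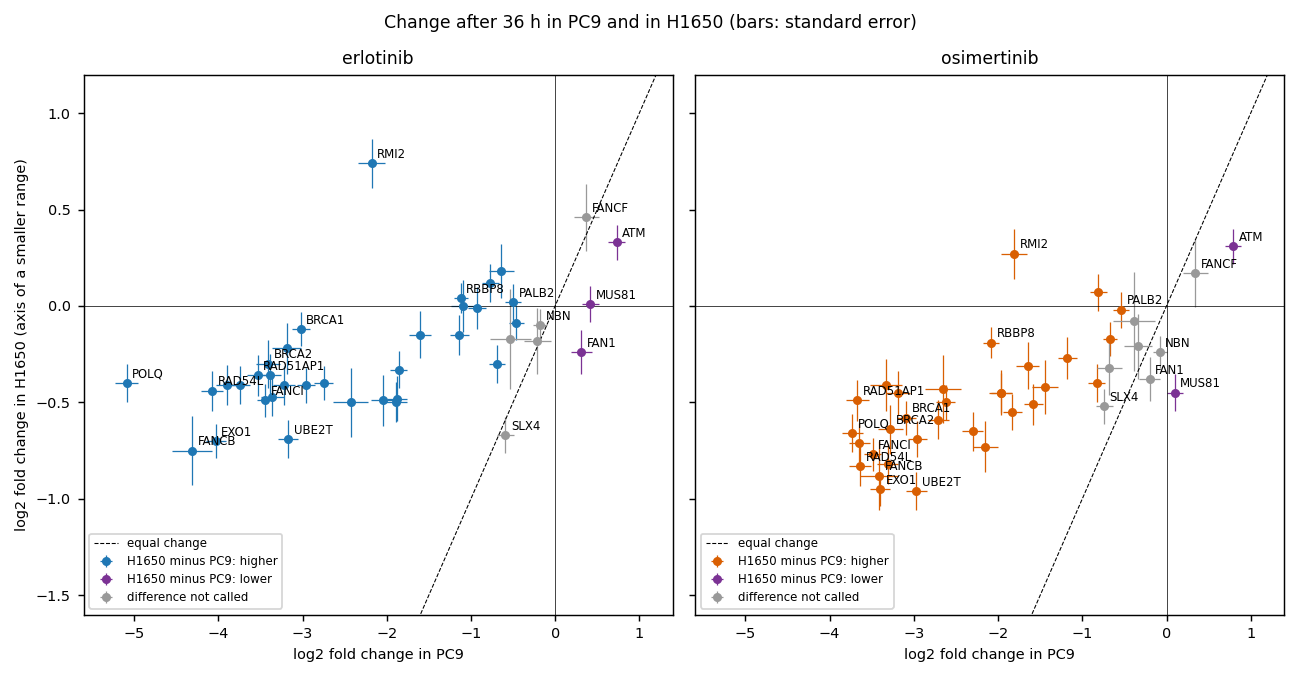
The log2 fold change in H1650 (vertical axis, smaller range) is plotted against that in PC9 (horizontal axis) for the 41 genes, erlotinib on the left and osimertinib on the right, with bars for the standard error and a dashed line for equal change. Most points lie above the dashed line (33 and 32 genes passed the test with a difference above 0), RMI2 stands high with erlotinib, and ATM and MUS81 lie to the right of it.

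Before treatment the levels of the lines differed by little on balance. At T0, 15 of the 41 were lower in H1650 than in PC9 cells, against 33.8% of all genes, and 11 were higher, against 35.8%, with a median log2 difference of -0.07. FANCF was the lowest (log2 -1.25 ± 0.164, adjusted p = 1.3e-07) and BRCA2 the next (-0.86). CHEK2 (1.04 ± 0.107), CHEK1 (0.90), ATM (0.88) and FAN1 (0.88) were the highest in H1650 cells.

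The doses of the drugs differ (10 μM erlotinib and 0.1 μM osimertinib), so a difference between them is one between these 2 conditions. In PC9 cells 4 of the 41 genes were lower with osimertinib than with erlotinib, against 6.41% of all genes, and 5 were higher, against 10.1%. RBBP8 was at 25.8 and 29.5 CPM with erlotinib and 13.8 and 14.7 CPM with osimertinib, groups that do not overlap (log2 -0.96 ± 0.0974, adjusted p = 2.8e-08). FAN1 (-0.51), FANCG (-0.44) and MUS81 (-0.33) were the others lower with osimertinib. POLQ was higher with osimertinib (log2 1.36 ± 0.193, adjusted p = 6.8e-06), as were BRIP1 (1.06), EXO1 (0.63), FANCA (0.59) and BARD1 (0.51). The 4 were 2 without PC9 osimertinib replicate 2, and the 5 were 2 without PC9 erlotinib replicate 1 and 3 without PC9 osimertinib replicate 1.

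In H1650 cells 8 genes were lower with osimertinib than with erlotinib, against 3.73% of all genes, and 0 were higher, against 5.02%. They were RAD51D (log2 -0.50), RMI2 (-0.47), BRCA1 (-0.46), MUS81 (-0.46), FANCA (-0.41), RAD54L (-0.39), FANCG (-0.35) and FANCI (-0.28). At an unadjusted p under 0.05, 0 of the 41 were higher in edgeR, and DESeq2 called 0. The count of 8 was 13 with the replicate number as a block, 1 without H1650 osimertinib replicate 1 and 4 without either H1650 erlotinib replicate.

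Several pairs of genes whose products act together moved unequally in PC9 cells, which the ratios of their RPKM restate. The ratio of MUS81 to EME1 was 1.33 and 1.11 in PC9 cells at T0, 14.2 and 15.6 with erlotinib and 13.9 and 12.3 with osimertinib. It ranged from 1.23 to 1.77 over the 6 H1650 libraries. The ratio of FANCL to UBE2T, ligase to E2 enzyme, was 0.531 and 0.500 at T0, 2.60 and 2.80 with erlotinib and 2.29 and 2.31 with osimertinib in PC9 cells. In H1650 cells it went from 0.425 in both T0 libraries to 0.780 and 0.713 and to 0.957 and 0.798.

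PALB2 to BRCA1 went from 0.906 and 0.915 to 5.36 and 5.14 with erlotinib and 4.94 and 5.75 with osimertinib in PC9 cells. ATM to CHEK2 went from 0.192 and 0.234 to 1.27 and 1.35 and to 1.54 and 1.35. NBN to BRCA1 went from 2.33 and 2.49 to 17.7 and 17.0 with erlotinib and 19.1 and 19.7 with osimertinib, and ATR to CHEK1 went from 0.299 and 0.288 to 1.24 and 1.66 and to 1.26 and 1.01. The 2 pairs that remain kept to a narrower range. FANCI to FANCD2 lay between 1.83 and 2.95 and BARD1 to BRCA1 between 0.417 and 0.885 over all 12 libraries. The pairs were chosen from genes known to act together, and not all are subunits of a complex. ATM and CHEK2, like ATR and CHEK1, are successive kinases of a signal. These ratios rest on the same counts as the fold changes and were not tested.

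**Figure D4:**
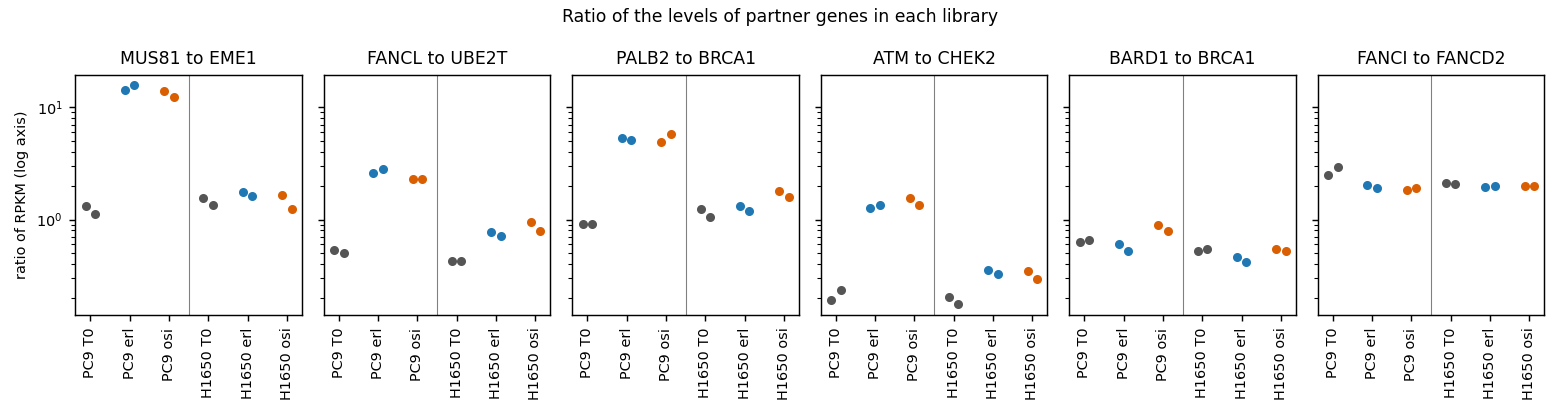
The ratio of RPKM (log axis) of 6 pairs of partner genes is plotted in each of the 12 libraries, T0 in grey, erlotinib in blue and osimertinib in orange. In PC9 cells MUS81 to EME1 stands near 1 at T0 and between 12.3 and 15.6 after either drug. FANCI to FANCD2 lies between 1.83 and 2.95 in all libraries, and in PC9 cells it is lower after either drug than at T0.

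Other genes of the pathways, a list of 59 in the table of which 58 were tested, moved less as a list in PC9 cells. With erlotinib 34 of the 58 fell, against 29.1% of all tested genes, and 10 rose, against 32.7% (median log2 -0.70). With osimertinib 33 fell, against 28.7%, and 9 rose, against 32.7% (-0.61). In H1650 cells 21 fell, against 18.5% of all tested genes, and 7 rose, against 18%, with erlotinib. With osimertinib there 23 fell, against 17.9%, and 5 rose, against 17.8%. The lowest mean changes of this list included those of CLSPN, which activates CHEK1, and of DMC1, which acts in meiosis. In PC9 cells with erlotinib they fell 35.1-fold and 22.7-fold. The highest were those of ZSWIM7 (log2 0.97 in PC9 cells with erlotinib), RECQL5 (0.73) and ABRAXAS1 (1.56), each of which rose there.

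The other repair pathways had medians nearer to 0 with erlotinib in PC9 cells. There 29.1% of all tested genes fell and 32.7% rose. Of 12 genes of classical end joining 8 fell and 3 rose (median log2 -0.53), and of 7 of mismatch repair 4 fell and 1 rose (-0.47). Of 18 of base excision 9 fell and 3 rose (-0.28), and of 17 of nucleotide excision 8 fell and 3 rose (-0.18). With osimertinib the medians were -0.59, -0.82, -0.31 and -0.13. In H1650 cells they were -0.21, 0.01, -0.02 and -0.16 with erlotinib and -0.32, -0.03, -0.14 and -0.18 with osimertinib. A list of 25 genes of replication and mitosis fell in full in PC9 cells with each drug, against 29.1% and 28.7% of all tested genes. The medians of this list were -3.34 and -3.23. Its sum went from 5220 and 5320 CPM to 626 and 655 with erlotinib and to 658 and 702 with osimertinib.

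In H1650 cells the same cycling list went from 5050 and 4970 CPM to 3460 and 3520 with erlotinib, where 18 of the 25 fell. With osimertinib it went to 3050 and 3180 CPM, where 23 fell. The shares of all tested genes that fell were 18.5% and 17.9%. The medians of the cycling genes and of the 41 genes were below 0 in all 4 comparisons with T0, and the part of the cycling genes in the changes was not tested. Between the drugs in PC9 cells 7 cycling genes were higher with osimertinib, against 10.1% of all tested genes, and 2 lower, against 6.41%. The median of the cycling genes was 0.22, where that of the 41 genes was -0.04. In bulk RNA, fewer cells in S and G2 phase and less mRNA per cell cannot be told apart. The genes not called lower in PC9 cells with either drug were ATM, FANCF, FAN1, MUS81, NBN, RAD50 and RAD51B, though every treated library of NBN and RAD51B lay below T0.

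**Figure D5:**
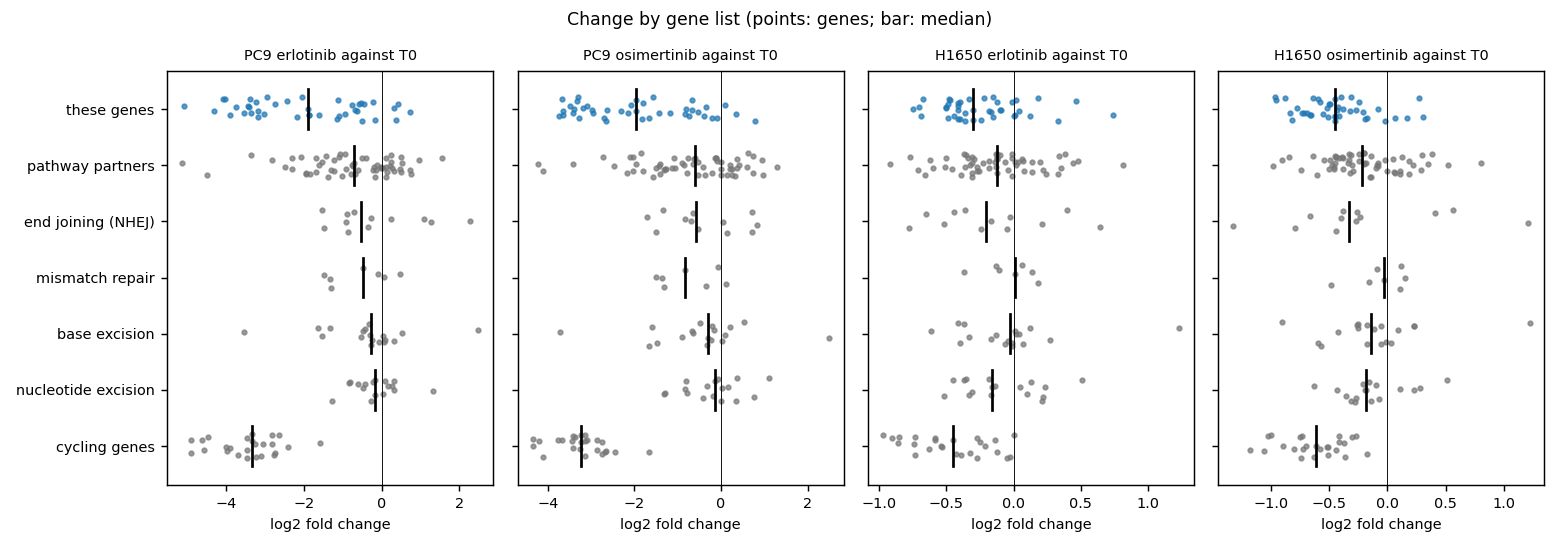
The log2 fold change of each gene (points) is plotted for the 41 genes in blue and for 6 other lists in grey, with a bar at the median, in the 4 comparisons with T0, whose axes differ in range. In PC9 cells with erlotinib the median of the 41 genes (-1.89) lies between those of the pathway partners (-0.70) and of the cycling genes (-3.34).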

How the data were processed

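Polyadenylated RNA of PC9 and H1650 cells was sequenced in 12 libraries, grouped by their labels into 6 groups of 2. Per the study's methods the reads were run through DolphinNext, and the authors deposited raw featureCounts counts per gene, with a gene length in each row. The submitters' processing notes name GRCh38 and DESeq2. The aligner, annotation and strandedness are not given in the sources used here. With edgeR 4.0.16 in R 4.3.3, genes were filtered by group (19108 kept, 41483 left out), scaled by TMM (factors 0.941 to 1.08) and fitted in 1 quasi-likelihood model of the 6 groups, with 6 residual and 20.7 prior degrees of freedom and a biological coefficient of variation of 0.0656. Adjusted p-values are Benjamini-Hochberg over all 19108 genes in each of 9 contrasts, called under 0.05. Normalized CPM divides counts by the scaled library size, and RPKM divides it by the deposited length.

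The 41 members and all gene lists were chosen with earlier results of these data known. Per-library values are given for the lowest and highest mean change in each of 8 role groups and for the 2 lowest and 2 highest drug-by-line differences. Other members were named where a sentence turned on them. Of the other pathway genes the 3 lowest and 3 highest mean changes were to be named, and 1 of these is not reported here. Positions and exon overlaps are those of GENCODE 29. The settings varied were the tool (DESeq2 1.42.0), the normalization (RLE or upper quartile), the filter (none, or 10 counts or more in each library), the threshold (adjusted p under 0.01), the replicate number as a block and the fit (one per cell line), besides leaving out each library in turn, where a lone library is taken to vary like the other groups. The procedure was tested on simulated data. Libraries of a group differed by more than sampling noise (chi-square per degree of freedom 3.86 to 6.84).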

Additional observations from a re-analysis of the deposited data

Results flagged for a closer look

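A test of the difference between the lines (the log2 fold change in H1650 minus that in PC9) passed for 36 of the 41 genes with erlotinib and for 34 with osimertinib. Of all tested genes 21.1% passed above 0 and 19.8% below 0 with erlotinib, and 21.5% and 20.5% with osimertinib. With erlotinib POLQ (4.69), RAD54L (3.63) and RMI2 (2.92) had a difference above 0, and FAN1 (-0.55) and MUS81 (-0.41) below 0. RMI2 fell in PC9 cells and rose in H1650 cells in that comparison. With osimertinib RAD51AP1 (3.18) and POLQ (3.06) had a difference above 0, and MUS81 (-0.55) and ATM (-0.48) below 0.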

How the results depend on the processing

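Under every alternative run, 34 to 36 of the 41 genes were lower in PC9 cells with either drug, 16 to 23 in H1650 cells with erlotinib and 24 to 33 with osimertinib. Counts of few genes moved more. Genes higher in PC9 cells with erlotinib (4) were 2 at an adjusted p under 0.01, without a low-count filter and with DESeq2, and 2 to 4 when 1 library was left out. Genes higher in PC9 cells with osimertinib (2) were 1 at an adjusted p under 0.01, with RLE normalization, without a low-count filter, with one fit per cell line and with DESeq2, and 1 to 2 when 1 library was left out. Leaving out 1 library gave 1 to 3 genes higher in H1650 cells with erlotinib and 0 to 1 with osimertinib, 1 to 3 and 1 to 2 genes with a drug-by-line difference below 0 (1 for erlotinib at an adjusted p under 0.01), 2 to 4 lower and 2 to 5 higher in PC9 cells with osimertinib against erlotinib (2 and 3 at an adjusted p under 0.01), and 1 to 9 lower in that comparison in H1650 cells (2 at an adjusted p under 0.01, 5 with DESeq2). The cause was not tested.

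Same-numbered replicates of a line deviated together only weakly (r of 0.013 to 0.095, all positive and none over 0.1), and the labels do not say that a number marks a shared culture or day. With the replicate number as a block, 13 genes in place of 8 were lower with osimertinib than with erlotinib in H1650 cells, and 276 of 289 results kept direction and call. DESeq2 kept 273 of them.

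Signs reversed only for genes near 0 that did not pass the test. In H1650 cells with erlotinib these were RAD51C (0.00 with upper quartile normalization, 0.01 with at least 10 counts in every library, -0.11 to 0.10 with 1 library left out), MUS81 (-0.01 with RLE, -0.02 without a filter and with DESeq2, -0.08 to 0.10), FANCE (-0.02 with RLE, without a filter and with DESeq2, -0.0 with the replicate block, -0.07 to 0.07), RBBP8 (-0.02 to 0.09), PALB2 (-0.04 to 0.09), ATR (-0.22 to 0.02) and RAD50 (-0.38 to 0.01). With osimertinib they were RAD51B (-0.26 to 0.08), FANCF (-0.01 to 0.33) and PALB2 (-0.09 to 0.05). For the drug-by-line difference they were FANCF (-0.03 to 0.20), NBN (-0.01 with upper quartile normalization, -0.02 to 0.18) and RAD50 (-0.05 with upper quartile normalization, -0.15 to 0.24) with erlotinib, and FANCF (-0.34 to 0.01), FAN1 (-0.36 to 0.06) and RAD50 (-0.06 to 0.33) with osimertinib. Depth limits the low genes most: FANCB rested on 12 and 16 reads in PC9 cells with erlotinib.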
